A study of Mus musculus with 12 samples.

Results

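Ribosomal protein genes were described in the medial prefrontal cortex of mice of 2 inbred strains, with and without chronic restraint stress. The genes were chosen by name alone: every gene of the expression table whose symbol is Rps, Rpl or Rplp followed by a number, with an optional letter and number. This gave 88 genes of 55678 names, 35 of the small subunit (Rps) and 53 of the large subunit (Rpl and Rplp). Names with -ps, the usual mark of a pseudogene, are outside the rule. In the mouse annotation GENCODE M21, 82 of the 88 are protein coding and 6 are annotated as pseudogenes under a name that still matches (Rps3a2, Rps3a3, Rps4l, Rps12l1, Rpl6l and Rpl32l).

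Mice of the C57BL/6JmsSlc line (here B6) were set against BALB/cCrSlc mice (here BALB/c). Both are inbred lines for which the labels name no transgene, and ages were 9 to 10 weeks. Chronic restraint stress (CRS) meant confinement in a tube in the home cage for 6 h per day over 21 days, and control mice were handled without it. A 1.5-mm punch of frontal tissue was taken from each mouse after behavioural tests, so all 4 groups share the testing, and poly(A)-selected stranded libraries were sequenced. Each group held 3 libraries, 1 per mouse, named here by the mouse number: B6 control 2, 3 and 9, B6 CRS 12, 13 and 14, BALB/c control 5, 9 and 10, and BALB/c CRS 12, 13 and 15. The labels give neither sex, litter nor batch. Expression was read as TPM, a transcript abundance corrected for length and scaled to 1000000 per library, so levels can be compared between genes. Each library is listed with reads of 150 bp and a coverage of 6 Gb, but the number of reads behind a TPM value is unknown.

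Ribosomal proteins fold onto ribosomal RNA to build the subunit that reads messenger RNA and the subunit that joins amino acids. Most are needed in equal amounts in every cell, and in neurons the supply of ribosomes bears on protein synthesis in dendrites and axons. Messenger RNAs of these genes are short, abundant and easily copied back into the genome, so that mouse chromosomes carry many intronless copies of them, the processed pseudogenes. Many of the messages also begin with a C and a run of pyrimidines, the terminal oligopyrimidine tract, through which the kinase mTOR adjusts their translation.

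The reference transcripts of each gene were aligned to those of all other genes with a nonzero value in any library. For the gene itself only protein-coding transcripts were used where it had any. A near-identical gene was found for 78 of the 88 genes. Near-identical means an identity of 95% or more across 80% or more of whichever transcript is shorter. The copies that are not ribosomal protein genes by the rule numbered 373, and 45 of them had a mean of at least 10 TPM. The quantifier divides reads among the transcripts they match, so the values of a gene and of its near-identical copies are uncertain one by one. Sums of a gene and its copies are given below in TPM, which is corrected for length. Where a copy is shorter or longer than the gene, such a sum does not keep the number of reads. The part of length in the sums was not tested. Reads of both strains were assigned with GRCm38, which is not a BALB/c genome. The part of this reference in the strain results was not tested. The pairs below are some of those named in the strain results that follow, and those of Rps2, Rpl21, Rps7, Rplp0 and Rpl29 are not shown. Each pair shows 60 bases of the coding sequence of the gene above the same stretch of its copy, from GENCODE M21 transcripts on GRCm38, with the differing base in capitals. Positions count from 1 at the A of the start codon, and in a substitution the base of the gene stands first.
Rpl30 bases 66 to 125: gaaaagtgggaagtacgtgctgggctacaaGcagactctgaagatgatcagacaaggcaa
Gm12191: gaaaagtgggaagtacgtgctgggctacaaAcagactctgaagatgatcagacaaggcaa
Rpl35a bases 126 to 185: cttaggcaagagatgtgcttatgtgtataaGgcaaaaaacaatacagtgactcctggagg
Rpl35a-ps2: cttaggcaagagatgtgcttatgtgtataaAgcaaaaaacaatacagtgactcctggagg
Rpl3 bases 27 to 86: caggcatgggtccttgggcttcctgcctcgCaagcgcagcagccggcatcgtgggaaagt
Rpl3-ps1: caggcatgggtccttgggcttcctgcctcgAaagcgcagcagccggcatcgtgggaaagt
Rpl26 bases 147 to 206: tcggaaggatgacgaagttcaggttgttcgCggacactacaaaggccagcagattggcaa
Gm15772: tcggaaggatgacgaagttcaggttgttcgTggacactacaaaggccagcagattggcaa
Rps18 bases 324 to 383: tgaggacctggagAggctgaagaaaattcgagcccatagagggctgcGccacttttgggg
Rps18-ps6: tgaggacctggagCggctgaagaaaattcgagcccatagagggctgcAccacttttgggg
Rps3a1 bases 626 to 685: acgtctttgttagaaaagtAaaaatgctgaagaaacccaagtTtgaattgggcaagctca
Rps3a2: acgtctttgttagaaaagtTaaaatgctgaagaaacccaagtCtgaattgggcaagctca
Over the whole coding sequence Rpl30 (345 bases) and Gm12191 differ by 1 base, G96A. Rpl35a (330 bases) and Rpl35a-ps2 likewise differ by 1 base, G156A. Rpl3 (1209 bases) differs from Rpl3-ps1 by C57A and T786C, and Rpl26 (435 bases) from Gm15772 by C177T and T288C. Rps18 (456 bases) differs from Rps18-ps6 by T186C, A337C, G371A and G431A. Rps3a1 (792 bases) and Rps3a2 differ by T216C, T534C, A645T and T668C.

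Ribosomal protein messages were abundant. Of the 88 genes, 7 had a mean over the 12 libraries of 1000 TPM or more, 69 lay from 100 to under 1000 TPM, Rps3a2 lay between the bands at 67.1 TPM, 5 lay from 1 to under 50 TPM and 6 under 1 TPM. The 5 highest were Rplp1, a protein of the acidic stalk that recruits elongation factors (mean 1877 TPM, 1538 to 2176), Rpl41 (1423 TPM), Rps15 (1386 TPM), Rps21 (1222 TPM) and Rps29 (1202 TPM). At the other end, Rpl10l, a retrogene used in the testis, was listed at 0 in all 12 libraries. The lowest nonzero means were those of Rpl39l (0.0453 TPM), Rpl32l (0.0601 TPM), Rpl6l (0.257 TPM), Rpl3l, the striated muscle form of Rpl3 (0.329 TPM), and Rps3a3 (0.826 TPM). A total of 83 genes reached 1 TPM in at least 3 libraries and were tested, all 35 of the small subunit and 48 of the large. The 5 that did not were Rpl10l, Rpl39l, Rpl32l, Rpl6l and Rpl3l.

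Most paralogs sat far below their parents, but Rpl22l1 did not. Rpl22l1 had a mean of 205 TPM against 245 TPM for Rpl22. Rps27l, a p53-responsive form of Rps27, had 35.0 TPM against 901 TPM. Rpl7l1 had 29.7 TPM against 329 TPM for Rpl7, and Rps4l 21.5 TPM against 418 TPM for the X-linked Rps4x. A low value did not always mark a minor paralog. Rpl12 and Rpl5 are core proteins of the large subunit, Rpl5 binding the 5S RNA, and had means of 27.6 and 25.8 TPM. Their copies Gm10275 and Gm15500, identical to them over the coding bases, stood at 461 to 613 TPM and 318 to 477 TPM across the libraries.

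Libraries differed in ways that touch every gene of the family. In controls, B6 control 9 was the lowest of its group for 75 of 83 genes, against 31.4% of all 16423 tested genes, and BALB/c control 9 was the highest of its group for 79 of 83, against 23.3%. The median deviation of the genes from their group mean was -0.23 on the log2 scale in B6 control 9 and 0.15 in BALB/c control 9. Mitochondrial transcripts made up 17.4 to 23.9% of TPM, the neuronal RNA Bc1 8.68 to 13.5%, and 18S ribosomal RNA 3.97% in BALB/c CRS 12 against 0.0307 to 0.169% elsewhere. All 5 oligodendrocyte markers and all 6 striatal markers were above 0 in every library, and their summed levels differed between groups. The oligodendrocyte sum was 2258 to 8773 TPM in B6 controls, 2482 to 7113 in B6 CRS, 425 to 2795 in BALB/c controls and 475 to 1304 in BALB/c CRS, and the striatal sum 178 to 2426, 757 to 1994, 82.9 to 324 and 108 to 150.3 TPM. The 5 excitatory neuron markers of cortex summed to 1192 to 2469 TPM in B6 controls, 1208 to 1906 in B6 CRS, 1613 to 2179 in BALB/c controls and 1856 to 2240 in BALB/c CRS. In the same order the 5 inhibitory neuron markers summed to 768 to 863, 761 to 1095, 612 to 751 and 639 to 793 TPM, and the 5 astrocyte markers to 358 to 538, 485 to 534, 326 to 354 and 293 to 428 TPM. The inhibitory sums did not overlap between the control groups, nor did the astrocyte sums between the strains in either condition. The oligodendrocyte and striatal sums of the strains overlapped in controls and did not overlap under CRS. Within its group B6 control 9 held the lowest oligodendrocyte and striatal sums (2258 and 178 TPM) and the highest excitatory sum (2469 TPM). BALB/c control 9 held the highest oligodendrocyte and striatal sums of its group (2795 and 324 TPM) and the lowest excitatory sum (1613 TPM). Of the single markers, Aqp4 of astrocytes was called lower in BALB/c controls (-0.63, adjusted p 0.0360, limma). The part of marker levels, Bc1, mitochondrial RNA and these libraries in the results below was not tested, beyond the values given without them. In bulk tissue, fewer cells of a type and less RNA per cell cannot be told apart.

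**Figure D1:**
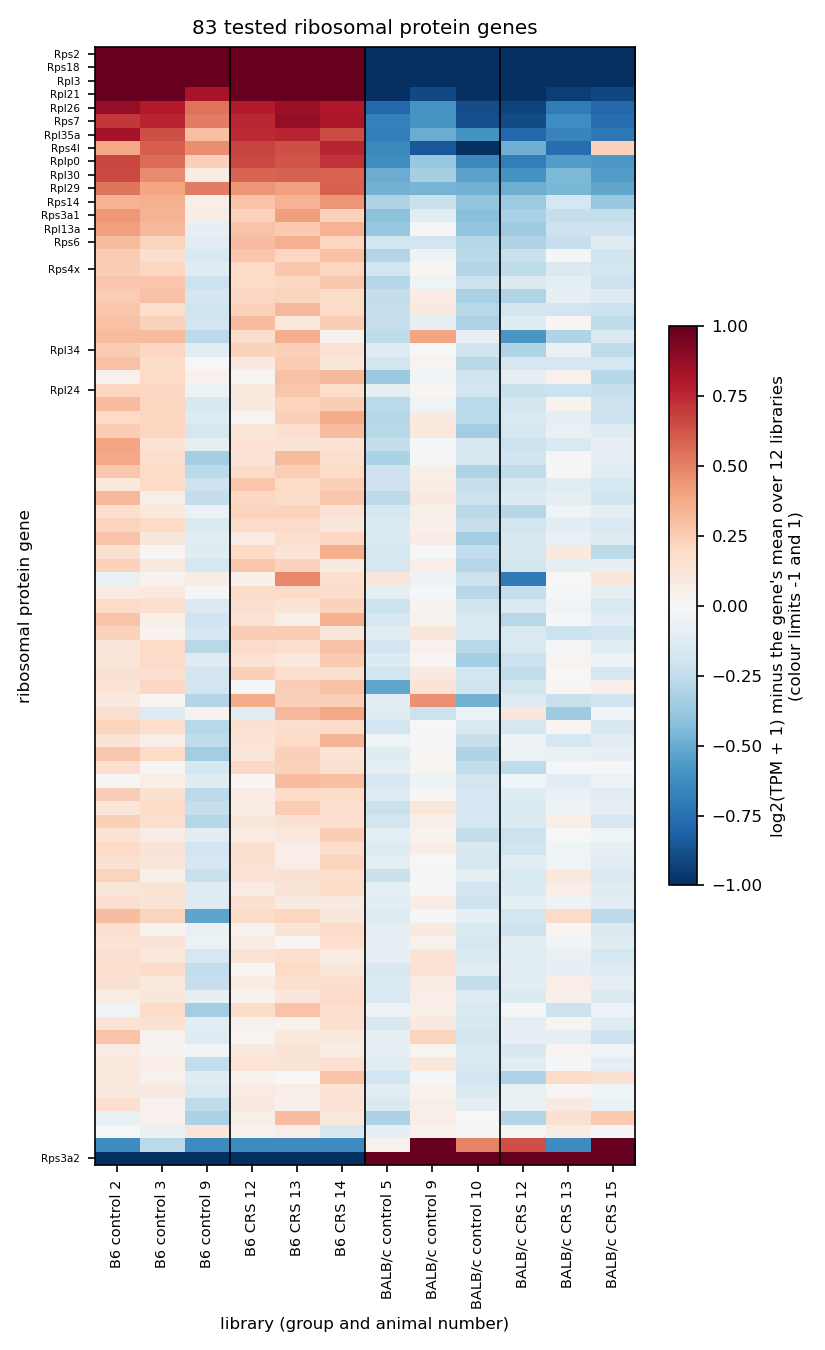
Each row is a tested ribosomal protein gene and each column a library; colour is log2(TPM + 1) minus the mean of the gene over the 12 libraries, with colours saturating at -1 and 1, vertical lines between the groups, and names given for the genes called in a strain contrast. The top rows (Rps2, Rps18, Rpl3, Rpl21) are high in the 6 B6 libraries and low in the 6 BALB/c libraries, the bottom row (Rps3a2) is the reverse, and the columns of B6 control 9 and BALB/c control 9 stand apart from their groups over most rows.

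The 88 genes together took a smaller share of TPM in BALB/c than in B6. In B6 controls 2, 3 and 9 the share was 4.77, 4.59 and 3.68% (mean 4.35 ± 0.584%, SD, n = 3), and in BALB/c controls 5, 9 and 10 it was 3.36, 3.88 and 3.28% (3.50 ± 0.323%). The control groups overlapped, since B6 control 9 lay below BALB/c control 9. Under CRS, B6 libraries 12, 13 and 14 had 4.57, 4.67 and 4.74% (4.66 ± 0.0812%), all above the 3.36, 3.69 and 3.44% of BALB/c libraries 12, 13 and 15 (3.50 ± 0.175%). The near-identical copies went the other way, at 0.831 ± 0.0953% in B6 controls and 0.916 ± 0.0186% in B6 CRS against 1.31 ± 0.115% and 1.32 ± 0.0645% in the BALB/c groups. Genes and copies together held 5.18 ± 0.679% in B6 controls, 5.57 ± 0.0950% in B6 CRS, 4.81 ± 0.439% in BALB/c controls and 4.82 ± 0.236% in BALB/c CRS. The gap between strains in these sums was smaller than for the genes alone. After mitochondrial transcripts, Bc1 and 18S were taken out of the total, the genes alone held 6.35, 6.83, 5.45 and 5.33% in the same order. No test was made on these shares.

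**Figure D2:**
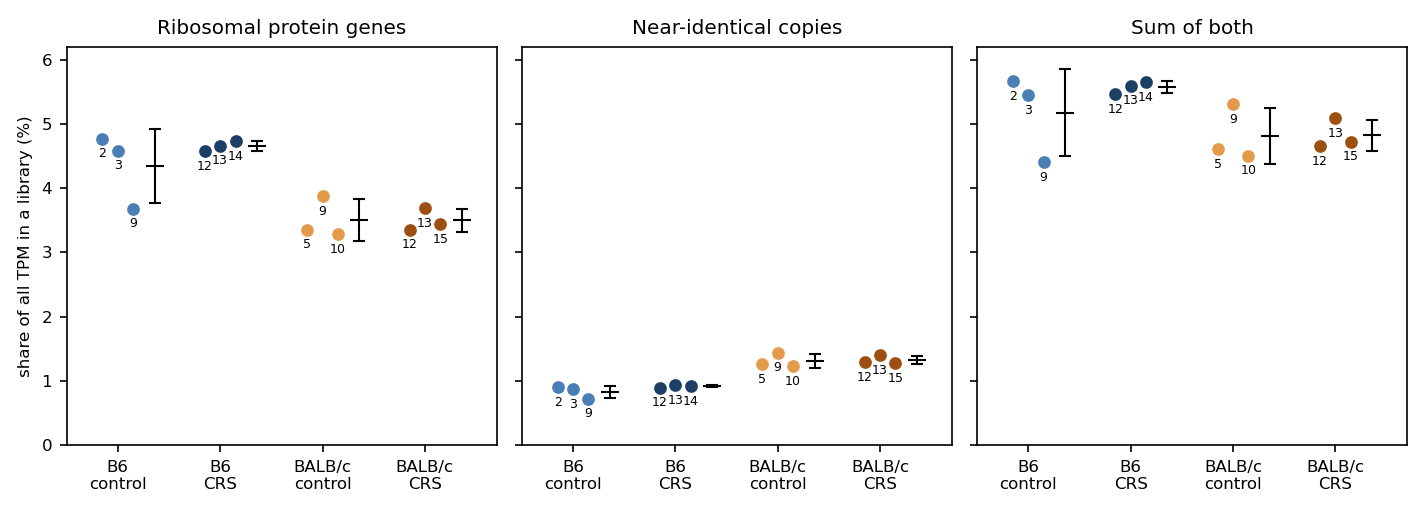
Points are libraries, numbered by mouse, and bars the mean ± SD of 3 libraries; the y axis is the percent of all TPM. The panels show the ribosomal protein genes, their near-identical copies, and the sum of both. The copies take 0.723 to 0.932% of TPM in B6 libraries and 1.23 to 1.44% in BALB/c libraries, and the groups lie closer together in the sum.

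The first comparison asked how the strains differ without stress. Relative to B6 controls, 13 ribosomal protein genes were lower and 1 was higher in BALB/c controls at an adjusted p under 0.05 (limma, Benjamini-Hochberg over all 16423 tested genes). Those 14 of 83 stand against 4.73% called among all tested genes, and the 13 against 3.37% called lower. The median difference over the 83 genes was -0.16 on the scale log2(TPM + 1), beside -0.10 over all tested genes, and 78 of 83 lay below 0 against 67.7% of all genes. Without B6 control 9 the median was -0.30, without BALB/c control 9 it was -0.25, and without B6 control 2 it was -0.10. Of the 83, 16 had all BALB/c controls below all B6 controls, against 18.7% of all genes. By subunit, 7 of 35 small-subunit genes and 7 of 48 large-subunit genes were called. Since the labels name no cultures or litters, p-values measure the spread between these 12 mice.

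Rps2, whose protein lines the channel where messenger RNA enters the small subunit, had the largest fall. The gene lies on chromosome 17 (24718116 to 24721929, plus strand). It stood at 776, 737 and 592 TPM in B6 controls and at 18.7, 19.5 and 17.0 TPM in BALB/c controls. The groups lay far apart (difference of -5.17 on the log2 scale, SE 0.13, adjusted p 3.82e-11, limma). Its copy Rps2-ps10, 99.5% identical over the aligned bases, was at 5.54 to 10.0 TPM in the 6 B6 libraries and at 1392 to 1564 TPM in the 6 BALB/c libraries. Of the 906 coding bases of Rps2, 888 were identical in the copy, with 5 substitutions and 13 gap bases. With all 24 copies summed, Rps2 reached 794, 754 and 608 TPM in B6 controls and 1499, 1598 and 1581 TPM in BALB/c controls. The direction thus turned, and the sum was called higher in BALB/c (1.13, SE 0.11, adjusted p 3.17e-05, limma). The part of transcript length in this sum was not tested.

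Rps18 (chromosome 17, 33951999 to 33956001), a protein of the head of the small subunit, reached 618, 617 and 502 TPM in B6 control mice and 26.7, 34.4 and 29.6 TPM in BALB/c controls (-4.22, SE 0.13, adjusted p 3.06e-10, limma). Its copies on chromosome 13, Rps18-ps5 (28257528 to 28258134) and Rps18-ps6 (97760072 to 97760632), were at 2.55 to 5.89 and 1.39 to 4.90 TPM in B6, and at 132 to 162 and 339.9 to 404 TPM in BALB/c. Despite their names, GENCODE M21 lists both copies as protein coding. Summed with its copies, Rps18 overlapped between the control groups (624, 625 and 506 against 511, 600.1 and 506 TPM), with a difference of -0.12 (SE 0.12) that did not pass.

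Rpl3, which shapes the peptidyl transferase centre, measured 673, 652 and 558 TPM in B6 control mice and 113, 135 and 109 TPM in BALB/c controls (-2.39, SE 0.10, adjusted p 1.46e-08, limma). Its copy Rpl3-ps1 (chromosome X, 13202571 to 13203780) was listed at 0 in all 6 B6 libraries and at 384 to 499 TPM in BALB/c, and the summed difference was -0.20 (SE 0.11), which did not pass. Rpl21 was at 459, 446 and 387 TPM in B6 controls against 108, 116 and 99.4 TPM in BALB/c controls (-1.99, SE 0.10, adjusted p 4.41e-08, limma). Its copy Gm13370 (chromosome 2, 24985984 to 24986466), which differs from it by T336C and T432C, was listed at 0 in B6 and at 693 to 829 TPM in BALB/c. A second copy, Gm28900, identical to Rpl21 over 153 aligned bases, was at 194 to 516 TPM in B6 and 71.2 to 262 TPM in BALB/c. In the sum with all its copies Rpl21 differed by 0.12 (SE 0.16) and did not pass.

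A total of 10 genes lay above a copy in the B6 mean and below that copy in the BALB/c mean, all of them among the 14 called. Besides those above they were Rpl26, Rps7, Rpl35a, Rplp0, Rpl29 and Rpl30. The change of order and the calls rest on the same values, so their overlap is no separate result. Rpl26, a protein that also binds p53 messenger RNA, went from 888 to 1120.0 TPM over the 6 B6 libraries to 319.7 to 404 TPM over the 6 BALB/c libraries, while Gm15772 (chromosome 5, 3236431 to 3236868) went from 0 to 1.05 TPM to 719.8 to 837 TPM. Rps7 went from 379 to 489 TPM to 142 to 176 TPM, with Rps7-ps3 on the X chromosome at 27.4 to 54.8 TPM in B6 and 376 to 466 TPM in BALB/c. Rplp0, the base of the acidic stalk, went from 218 to 305 TPM to 114 to 142 TPM, and its copy Gm8730, with 12 coding differences, from 0 to 0.353 TPM to 118 to 132 TPM, so that gene and copy were nearly equal in BALB/c. In each of these 3 genes no library of a strain overlapped the other strain. Summed, their differences in controls were 0.15 for Rpl26, 0.29 for Rps7 and 0.10 for Rplp0, and none passed.

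For Rpl35a and Rpl29 the gene was lower and the sum of TPM with its copies higher. The part of transcript length in these sums was not tested either. Rpl35a, a protein mutated in Diamond-Blackfan anaemia, measured 702, 614 and 485 TPM in B6 control mice and 244, 279 and 260.0 TPM in BALB/c controls, with Rpl35a-ps2 (chromosome 1, 181241988 to 181242320) at 0 to 3.45 and 536 to 689 TPM in the strains. Its sum rose to 781, 971 and 814 TPM in BALB/c controls from 704, 616 and 486 TPM (0.52, SE 0.13, adjusted p 0.0420, limma). Rpl29 measured 457, 415 and 449.8 TPM in B6 control mice and 227, 228 and 226 TPM in BALB/c controls. Gm8210 (chromosome 1, 43189156 to 43189638), which differs from Rpl29 by C72A, C300T and T423C, was listed at 0 in B6 and at 408 to 469 TPM in BALB/c. The Rpl29 sum rose from 468, 432 and 461 to 647, 708 and 659.5 TPM, with no overlap (0.56, SE 0.08, adjusted p 0.00158, limma). Rpl30 was alone at 557, 490.2 and 372 TPM against 250.2, 279.9 and 242 TPM, and its sum differed by 0.41 (SE 0.12, adjusted p 0.0862, limma), which did not pass.

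**Figure D3:**
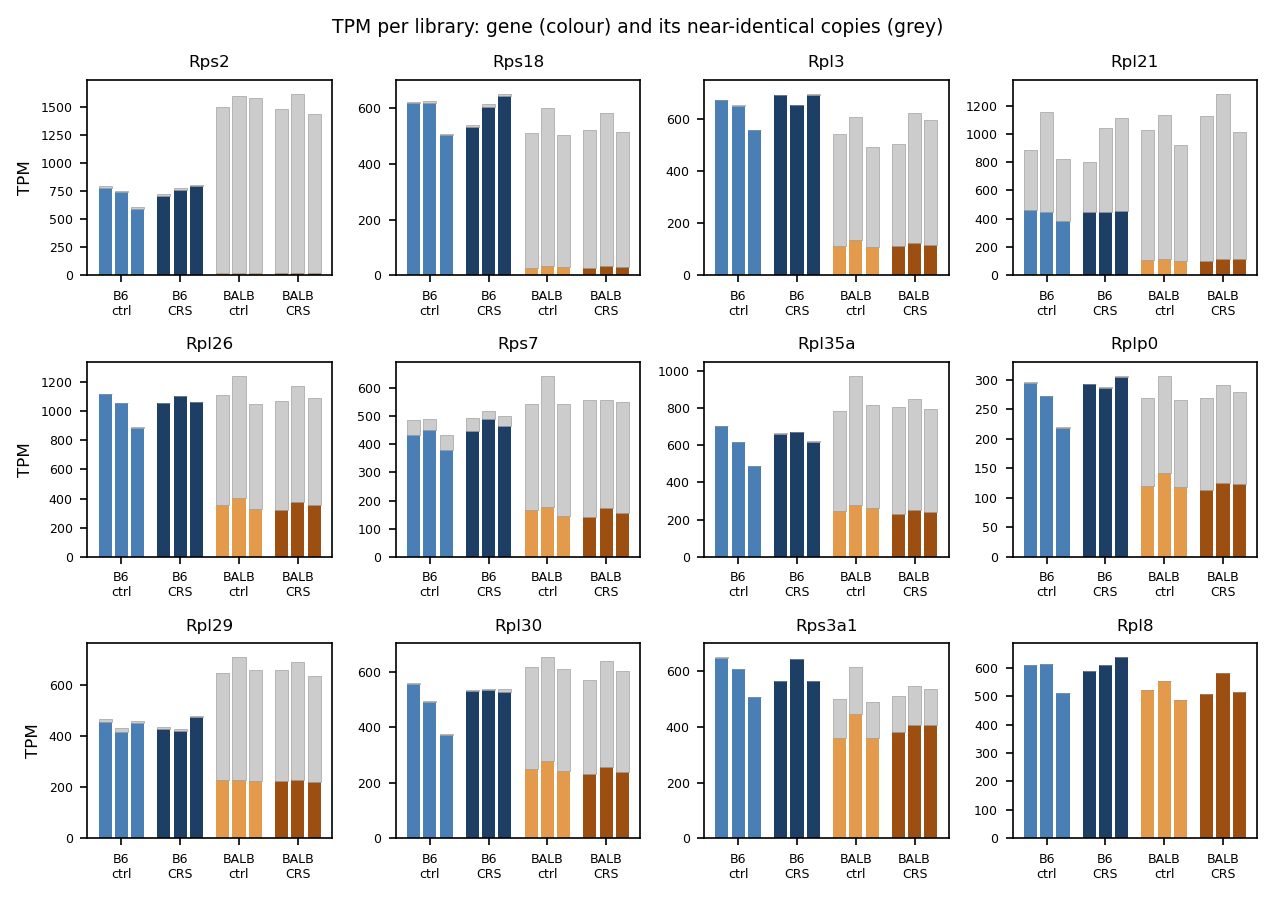
Stacked bars give TPM per library for 11 called genes and for Rpl8, which has no near-identical gene; the coloured part is the gene, the grey part its near-identical copies, and the 3 bars of each group are its mice in number order. For Rps2, Rps18, Rpl3 and Rpl26 the B6 bars are almost all colour and the BALB/c bars mostly grey, Rpl21 has grey in both strains, and for Rps2 the BALB/c bars are higher than the B6 bars.

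The gene called higher in BALB/c was Rps3a2, a processed pseudogene of Rps3a1 on chromosome 14 (88123017 to 88123808). Its values were 0, 0.262 and 0 TPM in B6 control mice and 134, 162 and 125 TPM in BALB/c controls (log2 difference 7.02, SE 0.18, adjusted p 5.91e-11, limma). Rps3a1 itself, a protein of the small-subunit platform, was lower in BALB/c controls, at 361, 445 and 359 TPM against 648, 606 and 506 TPM (-0.59, SE 0.12, adjusted p 0.0112, limma). The sum that holds both differed by -0.14 (SE 0.12) and did not pass. The Rps3a1 call was lost without B6 control 3, without BALB/c control 5 and without BALB/c control 10, with adjusted p up to 0.0619 (limma).

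Only Rps14 and Rps4l were called lower both alone and with copies summed. For Rps4l both fits hold the same values, since it has no copy to add, and Rps14 has only copies under 10 TPM. The sum is therefore no separate check of these genes. Rps14, a protein of the platform of the small subunit and the gene whose loss marks the 5q- syndrome, measured 969, 974 and 794 TPM in B6 control mice and 620.4, 655 and 581 TPM in BALB/c controls. The groups did not overlap (-0.55, SE 0.10, adjusted p 0.00851, limma), and the call was lost without BALB/c control 10 (adjusted p 0.0501) and under median-of-ratios scaling (-0.43). Rps4l, a transcribed pseudogene of Rps4x with no near-identical gene, measured 25.6, 29.9 and 27.2 TPM in B6 control mice and 12.1, 10.3 and 9.09 TPM in BALB/c controls. The groups again did not overlap (-1.32, SE 0.21, adjusted p 0.00219, limma).

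With near-identical copies summed, 5 of 85 tested genes were called in controls, 3 higher (Rps2, Rpl29, Rpl35a) and 2 lower (Rps14, Rps4l), against 4.48% of all tested genes. Of the 14 genes called alone, 12 had a copy at 10 TPM or more, as had 43 of all 83 genes tested alone. Of the same 14, 9 had the opposite sign when summed. Near-identical members share 1 sum, as Rps3a1, Rps3a2 and Rps3a3 do, so the 85 are not all separate. Without B6 control 9, the count of genes called alone rose from 14 to 26 and that of sums from 5 to 13, and without BALB/c control 10 the sums fell to 3. Among the 7 tested genes with no near-identical gene, 1 was called, Rps4l, and the median difference was -0.14. Rpl8, for example, measured 609, 614 and 510.4 TPM in B6 control mice and 523, 553 and 488 TPM in BALB/c controls, which overlapped.

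**Figure D4:**
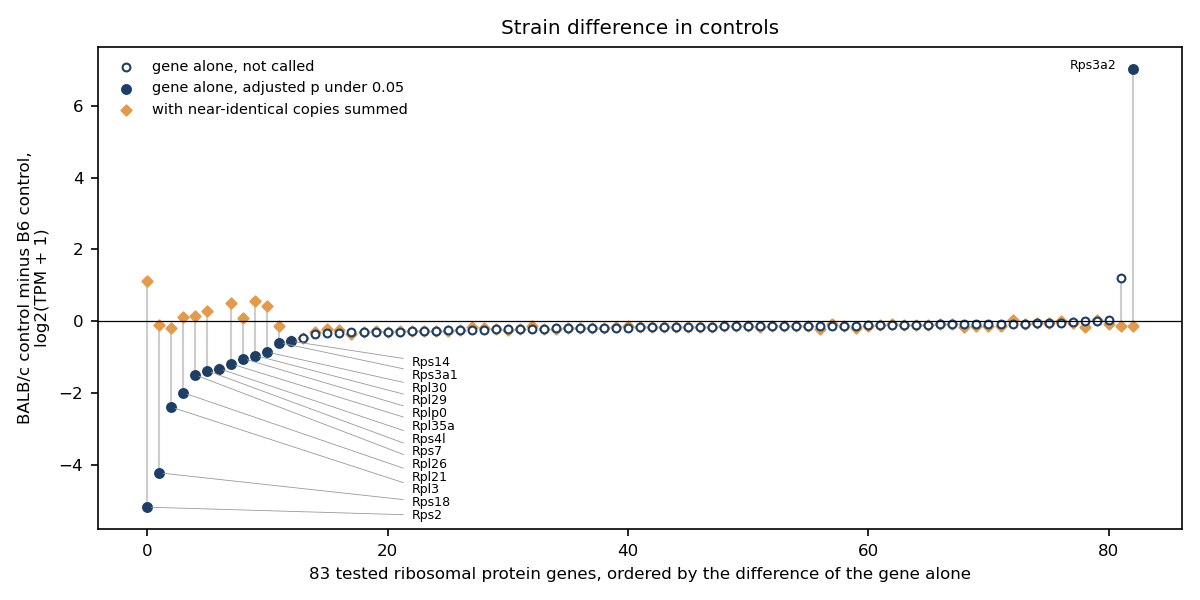
The y axis is the BALB/c control minus B6 control difference in log2(TPM + 1) for the 83 tested genes, ordered along the x axis by the value of the gene alone; circles are the gene alone (filled where the adjusted p is under 0.05), diamonds the gene with near-identical copies summed, and grey lines join both. Most filled circles are pulled back towards 0 or above it, Rps2 from -5.17 to 1.13 and Rps3a2 from 7.02 to -0.14. Rps14, with only copies under 10 TPM, and Rps4l, with no copy to add, keep their place.

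Other genes stood below their copy in both strains, without a change of order. They numbered 9: Rpl5, Rpl10, Rpl12, Rpl27, Rpl27a, Rpl28, Rpl31, Rps20 and Rps23. In 8 of these pairs the aligned coding bases held 0 differences, and Rps20 differed from Gm4332 by G324A. Rpl28 was at 251 TPM in the mean of either strain, and its copy Rpl28-ps1 at 430.4 TPM in B6 and 395 TPM in BALB/c. Rpl27a was at 248 and 222 TPM, with Gm7536 at 749.8 and 686 TPM. None of these 9 genes was called alone in either strain comparison.

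The second comparison set the stressed groups of the strains side by side. Among CRS mice, 18 ribosomal protein genes were lower and 1 was higher in BALB/c, 19 of 83 against 7.70% of all tested genes called and 5.33% called lower. The median difference was -0.31, beside -0.06 over all tested genes, and 80 of 83 genes lay below 0 against 58.7% of all genes. In 71 of 83 genes all 3 BALB/c libraries lay below all 3 B6 libraries, against 20.0% of all genes. In the same contrast 5 of the 6 striatal markers and the choroid plexus marker Folr1 (-1.56) were called lower in BALB/c, and the excitatory neuron marker Neurod6 (1.02) higher. The part of these markers in the result was not tested. The median was -0.34 for the 35 small-subunit genes and -0.29 for the 48 large-subunit genes. The shift was also present in the 33 genes whose copies were all under 10 TPM, with a median of -0.29, and in the 7 without a near-identical gene, with -0.31. With copies summed the same 33 and 7 genes had medians of -0.28 and -0.31. The 7 have nothing to sum and the 33 add only copies under 10 TPM, so these medians are no separate check.

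The 14 genes called in controls were all called under CRS as well, Rps3a1 in 4 of the 6 fits that left out 1 CRS library (adjusted p up to 0.0572, limma). Rps2 was at 701, 759 and 793 TPM in B6 CRS and 20.1, 17.6 and 23.3 TPM in BALB/c CRS (-5.15, SE 0.13, adjusted p 3.95e-11, limma). Rps3a2 was at 0, 0.677 and 0.313 TPM against 125, 134 and 124 TPM. Rps14 was at 931, 969 and 1035 TPM against 593, 676 and 586 TPM (-0.66, SE 0.10, adjusted p 0.00241, limma), with no overlap. Rps4l was at 31.7, 30.9 and 33.5 TPM against 13.5, 11.1 and 23.0 TPM (-1.03, SE 0.21, adjusted p 0.0107, limma), and lost its call without BALB/c CRS 12 (adjusted p 0.0511).

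A further 5 genes passed in CRS mice: Rpl13a, Rps6, Rps4x, Rpl34 and Rpl24. Rpl13a, which also takes part in the silencing of inflammatory messages, was at 1306, 1278 and 1361 TPM in B6 CRS and 835, 925 and 928 TPM in BALB/c CRS (-0.55, SE 0.14, adjusted p 0.0301, limma). Rps6, the substrate of S6 kinase whose phosphorylation is used as a readout of mTOR and of neuronal activity, was at 520.0, 538 and 485 TPM against 339.8, 357 and 384 TPM (-0.51, SE 0.11, adjusted p 0.0165, limma). In both genes the groups lay apart. Rpl24 was at 489.9, 553 and 517 TPM against 392, 393 and 389.8 TPM (-0.41, SE 0.10, adjusted p 0.0274, limma), and Rps4x and Rpl34 differed by -0.42 and -0.41. In controls the same 5 genes differed by -0.48, -0.37, -0.27, -0.23 and -0.21 in the order first named, and the test of the difference between the 2 contrasts passed for none of them. Rpl13a, Rps4x, Rpl34 and Rpl24 lost their call when any 1 of the 6 CRS libraries was left out, and Rps6 in 4 of those 6 fits, with adjusted p up to 0.140 (limma). Without BALB/c CRS 12, the library with the 18S RNA, 12 genes were called in place of 19, and without B6 control 9, which enters this contrast through the shared estimate of the spread, 30 were.

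With copies summed, 11 of 85 genes were called under CRS, 2 higher and 9 lower, against 7.52% of all tested genes. Rps2 (0.98) and Rpl29 (0.56) were higher. The 9 lower were Rps4l, Rps14, Rpl13a, Rps6, Rps4x, Rpl34, Rpl24 and, called in the sum alone, Rps13 (-0.40) and Rpl5 (-0.38). Rps13 with its 4 copies was at 441, 426 and 427 TPM in B6 CRS and 316, 343 and 320.5 TPM in BALB/c CRS. Rpl5 with its 5 copies was at 466, 512 and 445 TPM against 342, 392 and 359.9 TPM. In both, no BALB/c library reached a B6 library. The count of 11 fell to 3 or 4 when any 1 of the 6 CRS libraries was left out, being 3 without BALB/c CRS 12. Leaving out 1 control library, which acts through the shared spread, gave 6 (without BALB/c control 5) to 21 (without B6 control 9), with 7 without B6 control 3. It was 4 with no filter on low genes, with median-of-ratios scaling, or with mitochondrial RNA, Bc1 and 18S left out.

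The scaling of TPM moved the background of these strain contrasts. Median-of-ratios size factors brought the median of all tested genes in controls from -0.10 to 0.01 and that of the ribosomal protein genes from -0.16 to -0.03, with 57 of 83 below 0 and 12 called, 11 lower. Among all tested genes it turned a split of 224 higher and 553 lower calls in controls into 344 and 389. Under CRS the same scaling left the ribosomal protein genes at a median of -0.25, with 80 of 83 below 0 and 13 called, 12 lower, and the split of all calls went from 389 higher and 875 lower to 642 and 749. The direction of Rps2, Rps18, Rpl3, Rpl21 and Rps3a2 as single genes held under this scaling.

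The next comparisons asked what restraint changed within a strain. None of the 83 genes was called in B6, where 0% of all tested genes were called, and none in BALB/c, where 0.00609% were (limma, adjusted p under 0.05). At an unadjusted p under 0.05 the family held 2 genes for B6 and 1 for BALB/c, where all 16423 tested genes held 792 and 497. The median change of the family was 0.11 in B6, with 79 of 83 genes above 0, beside a median of 0.00 over all genes. Without B6 control 9 it was 0.0063, with 38 of 83 below 0. In BALB/c the median was 0.00, with 40 of 83 above 0, beside 0.05 over all genes. Without BALB/c control 9 the BALB/c median was 0.075, with 11 of 83 below 0, and without BALB/c control 10 it was -0.052, with 66 below 0. Median-of-ratios scaling put the BALB/c median at -0.06, with 71 of 83 below 0, so its direction depends on the scaling and on the control libraries. The 3 B6 CRS libraries lay above all controls for 6 of 83 genes, against 4.63% of all genes, and the 3 BALB/c CRS libraries lay below all controls for 2 of 83, against 2.02%.

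**Figure D5:**
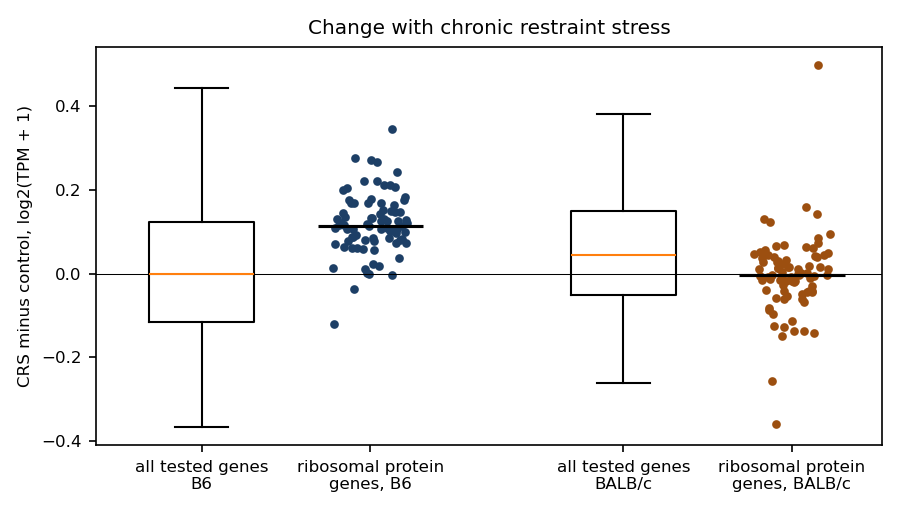
Points are the CRS minus control differences in log2(TPM + 1) of the 83 tested ribosomal protein genes in each strain, with a black line at their median; boxes show the quartiles of all tested genes and whiskers their 5th to 95th percentile. The points sit around 0.11 in B6 and around 0 in BALB/c; Rps4l (0.50) and Rps27l (-0.36) in BALB/c lie beyond the whiskers, and no gene passed the test.

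The genes of lowest p in these contrasts, none significant, can be given as values. Rpl15, a large-subunit protein, measured 241, 251 and 220.3 TPM in B6 control mice and 243, 296 and 295 TPM in B6 CRS (0.22, SE 0.10), and with copies summed the difference was -0.032. Rpl22l1 was at 199, 231 and 160.1 TPM against 231, 249 and 228 TPM (0.28, SE 0.13), with B6 control 9 the lowest. For Rpl28 and Rps3a3 the B6 differences were -0.04 (SE 0.09) and -0.12 (SE 0.46), and 0.14 and 0.012 with copies summed. In BALB/c, Rps4l was at 12.1, 10.3 and 9.09 TPM in controls and 13.5, 11.1 and 23.0 TPM after CRS (0.50, SE 0.21), and BALB/c CRS 15 alone stood high. Rps27l was at 28.5, 45.3 and 32.4 TPM against 22.6, 27.7 and 30.9 TPM (-0.36, SE 0.20), which overlapped, Rpl24 differed by -0.14 (SE 0.10) with no overlap, and Rps2 by 0.13 (SE 0.13), or by -0.048 with copies summed. All had an adjusted p of 1 (limma).

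The difference of the stress effects between strains was called for none of the 83 genes, nor for any of the tested genes (0%). At an unadjusted p under 0.05 there were 0 of the 83 and 443 of all genes. The median interaction was -0.12, with 76 of 83 below 0, beside 0.05 over all genes. Without B6 control 9 it was -0.013, with 47 of 83 below 0, and without BALB/c control 9 it was -0.041, with 56 below 0. Rps12l1, a processed pseudogene of Rps12, differed by -0.49 (SE 0.26), with an adjusted p near 1 (limma). Rps12l1 measured 196, 186 and 149.8 TPM in B6 control mice and 239, 217 and 217 TPM in B6 CRS, without overlap, and at 170.0, 253 and 133 TPM in BALB/c controls and 168, 158 and 160.2 TPM in BALB/c CRS, with overlap. Rps4l and Rpl28 had the lowest p on the positive side, at 0.29 (SE 0.29) and 0.08 (SE 0.13), and Rpl28 was at -0.15 with copies summed. The strain contrasts and the stress contrasts share libraries, so their values are not independent of each other.

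The spread within groups gave the precision of these values. The median coefficient of variation over the 83 genes was 13.6% in B6 controls, 4.57% in B6 CRS, 9.98% in BALB/c controls and 6.22% in BALB/c CRS, beside 16.4, 13.8, 13.2 and 15.3% over all tested genes. Rplp1 measured 2176, 2106 and 1538 TPM in B6 control mice and 2074, 2109 and 2128 TPM in B6 CRS. Rps27, a zinc-binding protein of the small subunit, was at 1100.4, 1039 and 615 TPM and at 1009, 1029 and 961 TPM. In both the low control is mouse 9, and the stressed mice lie close together. Rpl22 was at 269, 268 and 269 TPM in B6 CRS against 319, 268 and 227 TPM in B6 controls.

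Some of these genes carried a pyrimidine tract at their annotated start. RefSeq promoters of GRCm38.p6 matched 63 of the 88 genes. At the annotated start, 14 of 63 (22.2%) began with C followed by at least 4 pyrimidines (C or T) on the sense strand, against 813 of 27025 genes (3.01%). Within 10 bases either side of the start the motif was found in 40 of 63 (63.5%) against 34.4% of all genes. In genes of the mitochondrial ribosome it was at the start in 0 of 69, and within 10 bases in 31 of 69 (44.9%). The windows below give the 10 bases before the start and 20 from it, with the run of pyrimidines in capitals, for genes of the strain results (Rps6, Rps18 and Rpl35a) and for the gene with the longest run among those that begin with C (Rpl15). For Rpl35a the table holds 3 annotated starts, and the motif is at the start shown and not at the other two.
Rps6 (chr4:86857348-86857377, minus strand): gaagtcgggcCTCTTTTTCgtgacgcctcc
Rps18 (chr17:33955646-33955675, minus strand): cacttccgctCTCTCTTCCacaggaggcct
Rpl35a (chr16:33056472-33056501, plus strand): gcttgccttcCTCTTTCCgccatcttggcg
Rpl15 (chr14:18270967-18270996, minus strand): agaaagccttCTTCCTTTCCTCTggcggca
In these 4 genes the run is 9, 9, 8 and 13 bases long. A match describes these letters and says nothing of translation.

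Lists of genes that work beside the ribosomal proteins are given against the 4.73% of all tested genes called in controls and 7.70% under CRS. Of 5 ribosomal protein genes named outside the rule, among them Rpsa, Fau, Rack1 and Rpl36al, 0 were called in any contrast, and their medians over the libraries ran from 208 to 617 TPM. Their median difference was -0.06 in controls and -0.14 under CRS. Of the acidic stalk, Rplp0 was called in both strain contrasts and Rplp1 and Rplp2 were not (-0.16 for each in controls). Of 9 elongation factor genes, 1 was lower in BALB/c, Eef1g, at 164 ± 8.86 TPM against 236 ± 6.67 TPM in controls (SD, n = 3; -0.52, adjusted p 0.00180, limma). Of 30 initiation factor genes, Eif3j1 was lower in both strain contrasts and Eif1 under CRS. Of 32 ribosome biogenesis genes, Polr1b was lower in both and Gar1 higher under CRS. Of 16 genes of mTOR signalling, Ddit4, an mTOR inhibitor induced by glucocorticoids, was lower in BALB/c controls (21.2 ± 5.62 against 46.7 ± 14.3 TPM, SD, n = 3; -1.10, adjusted p 0.0347, limma). Under CRS 2 of the 16 were called, Eif4ebp1 higher and Sesn1 lower in BALB/c. With 1 or 2 calls per list, these counts do not set a list apart from the background. None of these lists had a called gene in a stress contrast.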

How the data were processed

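RNA of 12 mice was sequenced, and the authors deposited 1 table of TPM with a column per library. The unit was read from the column totals and the fractional values. Per the submitters' processing notes, cutadapt 2.9 and Salmon were used with GRCm38. No BALB/c genome was at hand, so genes and copies were compared on GRCm38 alone. The annotation, the Salmon version and the strand setting are not given in the sources used here. Salmon divides reads among the transcripts they match, so near-identical copies are uncertain one by one. TPM keeps no depth, and precision rests on the spread between mice.

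TPM of the 147902 rows was summed by gene name, and a gene was tested where 3 or more libraries held 1 TPM or more of it. Values as log2(TPM + 1), which understates the change of low genes, were fitted with limma 3.58.1 under R 4.3.3 as 4 group means with 8 residual degrees of freedom and a trend of the variance with level. The 12 libraries shared each fit, and Benjamini-Hochberg adjustment ran over all tested genes. A call is an adjusted p under 0.05. The fit was tested on simulated data. Copies were found with blastn 2.17.0 on GENCODE M21 transcripts (GRCm38) and their TPM was added to the TPM of the gene before a second fit. No weight for transcript length was used, so a sum over unlike lengths does not keep the number of reads. All 88 genes matched M21 by name.

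The genes, the lists and the tests were chosen with earlier results of these data known. Genes were named when called with groups that did not overlap, up to 10 in each direction of a strain contrast, or as the 2 of lowest p in each direction where none was called, or for the highest and lowest means, or from a list of roles. Copies were named only beside a named gene. Rpl8, Rpl12, Rpl27, Rpl27a, Rpl31, Rps13, Rps20 and Rps23 were chosen after their values were seen. The alternatives were another pseudocount, filter and scaling, copies summed, a replicate block, and each library left out in turn. Values of a few single genes are not reported here.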

Additional observations from a re-analysis of the deposited data

How the results depend on the processing

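The counts of called genes alone held within 1.5 times under another pseudocount (0.1), no filter, a mean of at least 5 TPM and median-of-ratios scaling, and no stress or interaction contrast gained a call under any alternative. Leaving out 1 library gave 12 (without BALB/c control 10) to 26 (without B6 control 9) calls in controls and, for the 6 CRS libraries, 12 (without BALB/c CRS 12) to 15 under CRS, where the reported counts were 14 and 19. For sums the ranges were 3 to 13 in controls and 3 to 4 under CRS, beside 5 and 11. The 11 sums under CRS became 4 with no filter, 4 with median-of-ratios scaling, and 4 without mitochondrial RNA, Bc1 and 18S. Summing copies at a looser identity of 90%, an alternative chosen after seeing the data, gave 5 and 10. The same numbers recur in some groups (9, 12 and 13) but name different mice, whose deviations correlated at -0.242, -0.0293 and -0.0361, so they do not pair the samples. With the number as a replicate block, 14 and 15 genes were called alone, the sums gave 4 and 4, and Rps3a3 turned to 0.50 for CRS in B6.

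Summing copies gave 5 calls in place of 14 and 11 in place of 19, and turned these differences. In controls they became 0.12 for Rpl21, 0.15 for Rpl26, 0.56 for Rpl29, 0.41 for Rpl30, 0.52 for Rpl35a, 0.10 for Rplp0, 1.13 for Rps2, -0.14 for Rps3a2 and 0.29 for Rps7. Under CRS they became 0.22 for Rpl21, 0.049 for Rpl26, 0.56 for Rpl29, 0.17 for Rpl30, 0.32 for Rpl35a, 0.98 for Rps2, -0.15 for Rps3a2 and 0.14 for Rps7. For CRS in B6 they became -0.032 for Rpl15, 0.14 for Rpl28 and 0.012 for Rps3a3, for CRS in BALB/c -0.048 for Rps2, and for the interaction -0.15 for Rpl28. Rpl28 ranged from -0.080 to 0.034 for CRS in B6 when 1 library was left out. The shares of TPM without mitochondrial RNA, Bc1 and 18S were 6.35, 6.83, 5.45 and 5.33% in B6 controls, B6 CRS, BALB/c controls and BALB/c CRS. Beyond the construction of each alternative the cause was not tested. Differences in depth between libraries could not be weighed, because TPM does not hold them and the same coverage is listed for each library.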

Other observations

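The ribosome of mitochondria, built from a separate set of nuclear genes, had 3 of 78 tested genes called between strains in controls and 4 of 78 under CRS, where 4.73% and 7.70% of all tested genes were called, so these counts do not stand above the background. Its genes took 0.342 to 0.412% of TPM. In BALB/c controls Mrpl14 was higher than in B6 controls (73.8 ± 1.72 against 40.9 ± 4.40 TPM, SD, n = 3; log2 difference 0.84, adjusted p 0.0101, limma). Mrpl55 (-0.96) and Mrps12 (-0.59) were lower. Under CRS Mrpl14 was again higher (0.94), and Mrpl55 (-0.92), Mrpl48 (-0.56) and Mrpl40 (-0.42) were lower. The median difference over the list was -0.05 in controls and -0.10 under CRS, and no gene of it was called for CRS within a strain or for the interaction.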
